A study of Solanum lycopersicum with 8 samples.

Results

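Red ripe fruit of the tomato accession SK was set against red ripe fruit of the accessions AV, TM and RJ, with 1 array for each accession. The SK fruit array is 1 of 4 fruit arrays and 1 of 8 arrays in the series, the other 4 being from mature leaf. Of 33750 probes other than controls, 5099 passed the scanner software's flag for signal well above background in each of the 4 fruits and were compared. Probes that match a RefSeq transcript cover 339 genes among them, 274 with a gene symbol and 65 with a locus identifier only.

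SK plants came from the Chatha area of Jammu, AV plants from a collection in Hyderabad, TM plants from Kashmir and RJ plants from Rajouri in Jammu. The submitters describe the accessions as differing in how maturity proceeds and in the carotenoids of the ripe fruit. Total RNA of whole red ripe fruit was marked with the dye Cy3 and read on Agilent tomato arrays with a single colour. The labels name no treatment, no mutant allele, no plant age and no pooling of plants, so 1 array stands for each accession with no replicate of any. Every difference given here is a description of these arrays, and no test between accessions was made.

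Tomato fruit ripening is driven by ethylene, which is made from methionine through S-adenosylmethionine and then 1-aminocyclopropane-1-carboxylate (ACC). S-adenosylmethionine also feeds the polyamines spermidine and spermine, so that both pathways draw on the same metabolite. During ripening, transcription factors such as RIN and NOR switch on genes for ethylene synthesis, cell wall breakdown and lycopene accumulation.

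A signal is given on the log2 scale after each array's 75th percentile was subtracted, so that 0 marks a bright probe of that array and a difference of 1 is a 2-fold difference. The percentile was taken over 3079 probes that carried this flag on every one of the 8 arrays. A probe or gene is counted as higher in SK fruit where SK lay at least 2-fold above the mean of the other 3 fruit arrays and above each of them, and as lower by the mirrored rule. A gene's signal is the mean of its measured probes. Across the genes measured, the median SD among the other 3 fruit arrays was 0.38.

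The SK fruit array had 6355 probes well above background, or 18.8% of those on it, and the 8 arrays ranged from 17.2% to 24.4%. No spot was saturated. Repeated spots of 1 probe on the SK fruit array had a median SD of 0.075 over 191 probes. Of 9 ripe fruit marker genes, SK, AV and RJ fruit had 9 well above background and TM fruit had 8. Their linear scaled signals summed to 30.7 in SK fruit, against 81.8 in AV, 34.4 in TM and 40.5 in RJ fruit, and the 4 leaf arrays summed to 0.26 to 0.57. Markers of photosynthetic tissue summed to 2.81 in SK fruit, against 2.35 in AV, 2.93 in TM and 2.04 in RJ fruit, while leaf gave 21.7 to 36.5. CAB4 and PsbQ, both of the photosynthetic apparatus, were not well above background on any fruit array. Of 5 seed marker genes only LEA14 was well above background in fruit, and none of 4 trichome and cuticle genes was. LEA14 does not mark seed alone, as it was above background on all 4 leaf arrays. It had -0.29 in SK, -2.48 in AV, 1.27 in TM and 1.15 in RJ leaf. SP, another of the 5, was matched by symbol only and may not be a seed gene. In whole fruit, fewer cells of a type and less RNA per cell cannot be told apart.

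The marker missing from TM fruit was PG2, the polygalacturonase that breaks down pectin in ripe fruit. Over its 6 probes PG2 averaged 0.90 in SK fruit, against 4.18 in AV fruit, -5.88 in TM fruit and 2.36 in RJ fruit, where the TM value is not well above background for any of the 6. The TM fruit array thus lacked a defining transcript of the stage on its label, and counts are given without it as well. SK and RJ fruit were hybridised on 1 slide and AV and TM fruit on another, so SK minus RJ is the difference within a slide.

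SK fruit was higher for 110 probes (2.16% of those compared) and lower for 137 (2.69%), or 4.84% together. Without the TM array the counts were 104 higher and 136 lower, and without AV they were 214 and 256. Other scalings moved the split: 80 higher and 181 lower with each array's median subtracted, 141 and 99 with spike-in scaling, and 64 and 111 after normexp background correction. Past 4-fold there were 5 probes higher and 6 lower. Among named genes 12 were higher (3.54%) and 12 lower (3.54%), and the counts were also 12 and 12 without TM. The genes behind these equal counts were not all the same. Without TM 15 of the 21 counted genes with a symbol stayed past 2-fold. Counted regardless of order among arrays, 28 genes (8.26%) lay at least 2-fold from the mean. SK was the highest of the 4 for 81 genes (23.9%) and the lowest for 61 (18%). Without AV 19 genes were higher and 16 lower, and other scalings gave between 7 higher and 17 lower (median) and 18 and 7 (spike-in). With the percentile over all probes the genes split into 8 higher and 14 lower, and with that over the fruit probes into 13 and 8.

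**Figure D1:**
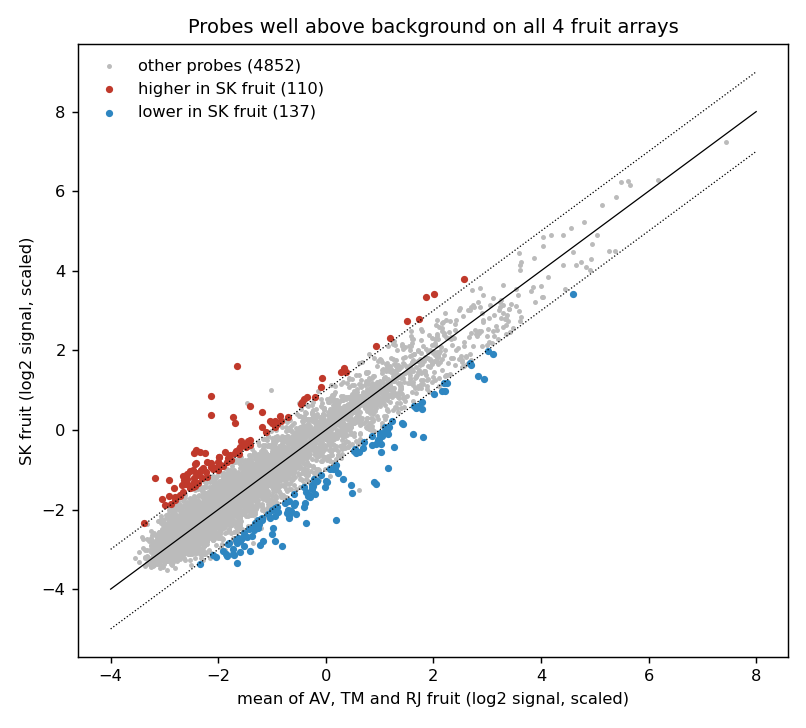
Each point is 1 of the 5099 probes, with its log2 signal in SK fruit on the vertical axis and the mean of AV, TM and RJ fruit on the horizontal axis, both scaled to the array's 75th percentile. The solid line marks equal signal and the dotted lines a 2-fold difference; 110 probes in red were higher in SK fruit and 137 in blue were lower.

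Dim and bright probes did not split alike. Probes were split by mean signal into dim, middle and bright groups of equal size. Among the dim ones 34 were higher in SK fruit and 11 lower. Among the bright ones 26 were higher and 75 lower, and among the middle ones 50 and 51. A gene with several probes, such as HSC80 or hdc, can enter these counts more than once. The median difference was 0.07 for dim, 0.08 for middle and -0.02 for bright probes.

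SK fruit held a middle place among the fruit arrays. Counted regardless of order among arrays, 5.31% of probes lay at least 2-fold from the mean of the other fruit arrays in SK, against 10.9% for AV, 11.8% for TM and 1.49% for RJ by the same measure. SK was the highest of the 4 arrays for 1285 probes (25.2%) and the lowest for 981 (19.2%). Across the 5099 probes the signals of SK fruit correlated at r = 0.94 with RJ, 0.92 with AV and 0.88 with TM fruit, with every probe of an array sharing that array's hybridisation. The array nearest to SK in signal was AV for 39.6% of probes, RJ for 37.6% and TM for 22.8%.

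SAMDC, the decarboxylase that commits S-adenosylmethionine to polyamines, had the largest difference of the genes counted as higher. Its log2 signal was 1.53 in SK fruit, against 0.58 in AV, -0.30 in TM and 0.36 in RJ fruit. SK thus lay above each other array, by 1.32 over their mean, or 2.50-fold, and by 1.17 over RJ on the same slide. All 4 of its probes pointed the same way, with differences of 1.19 to 1.47.

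SAM1, a synthetase that makes S-adenosylmethionine, was on the other side. Its signal was -0.64 in SK fruit, against -0.41 in AV, 0.85 in TM and 0.65 in RJ fruit. SK was the lowest, with a difference of -1.01 from the mean of the others, and all 9 probes lay below that mean (-1.18 to -0.77). SK lay close to AV for this gene and well below TM and RJ. The difference was -0.77 without TM and -0.86 without RJ, both short of 2-fold.

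SAHH, which recycles S-adenosylhomocysteine after methyl transfer, fell outside the lists and is named after its values were seen. Its signal was 1.44 in SK fruit, against 2.23 in AV, 2.94 in TM and 1.89 in RJ fruit, a difference of -0.91 with SK the lowest. It did not reach 2-fold.

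Both ACC synthases of the ripening fruit, the step that commits S-adenosylmethionine to ethylene, were lower in SK fruit. ACS2 had a log2 signal of -1.81 in SK fruit, against 0.47 in AV, -1.37 in TM and -0.82 in RJ fruit. ACS4 had -2.47 in SK fruit, against -0.75 in AV, -2.26 in TM and -1.10 in RJ fruit. SK was the lowest of the 4 for both, and its difference from the mean of the others was -1.24 for ACS2 and -1.10 for ACS4. Most of the ACS2 difference came against AV, and TM lay close to SK for both genes. Without AV the difference fell short of 2-fold for ACS2 (-0.71) and ACS4 (-0.79), and without RJ for ACS4 (-0.97). Against RJ alone ACS4 differed by -1.37 and ACS2 by -0.99. The ACC synthase ACS3 differed by -0.11, with SK between the others.

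ACC oxidases turn ACC into ethylene, and none of the 3 measured was counted. ACO1 had a signal of 0.99 in SK fruit, against 2.25 in AV, -2.52 in TM and 0.11 in RJ fruit. SK lay 1.05 above the mean of the others but below AV, so the gene is not counted as higher. EFE gave the same order, with 0.49 in SK fruit, against 1.83 in AV, -2.29 in TM and -0.24 in RJ fruit. ACO4 was highest in SK fruit at -2.36, against -3.31 in AV, -3.49 in TM and -3.19 in RJ fruit, a difference of 0.97 just under 2-fold. Without TM the difference was -0.19 for ACO1 and -0.30 for EFE, of the opposite sign, and 0.89 for ACO4. These oxidases are related copies, and cross-hybridisation between their probes was not tested.

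**Figure D2:**
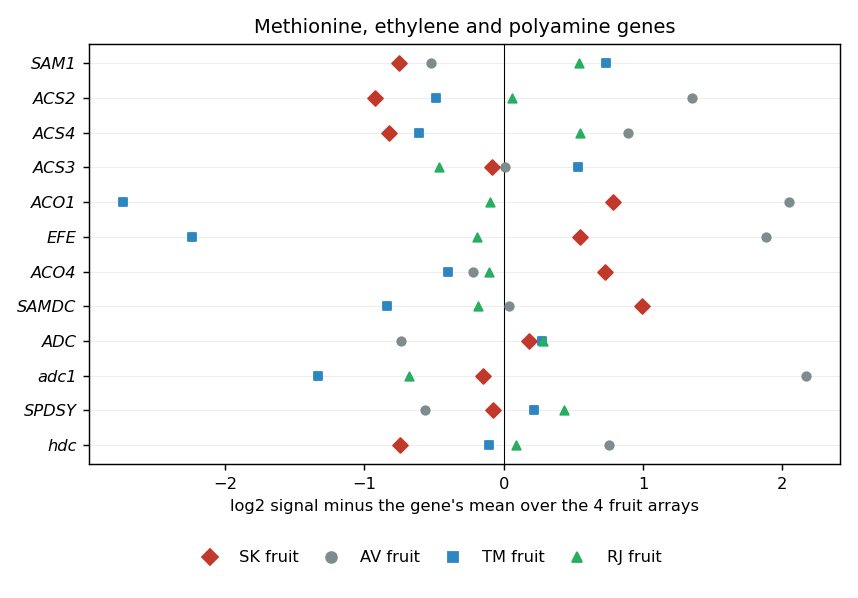
Each row is a gene of S-adenosylmethionine, ethylene or polyamine synthesis, and each marker is 1 fruit array, as its log2 signal minus the gene's mean over the 4 fruit arrays. The red diamond of SK fruit lies at the right end for SAMDC and ACO4, at the left end for SAM1, ACS2, ACS4 and hdc, and between other arrays for ACS3, ACO1, EFE, ADC, adc1 and SPDSY.

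The other polyamine genes lay between the accessions. ADC and adc1, arginine decarboxylases that start the plant route to putrescine, differed by 0.24 and -0.20. For adc1 a single array set the picture, with -2.11 in SK fruit, against 0.22 in AV, -3.29 in TM and -2.64 in RJ fruit. SPDSY, the spermidine synthase, differed by -0.11. Of 7 genes in the polyamine and amine list 6 were measured, 1 was higher (SAMDC) and 1 lower (SAM1), beside 3.54% of all genes each way, and the median difference was -0.15 against 0.04 over all 339 genes. The list also holds hdc, histidine decarboxylase, which stood at -0.02 in SK fruit, against 1.48 in AV, 0.62 in TM and 0.81 in RJ fruit. SK was the lowest for hdc, at -0.99 from the mean and just short of 2-fold. All 16 of its measured probes lay below the mean of the others (-1.45 to -0.66).

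Ethylene perception and signalling showed small differences. Of 32 genes in the ethylene list 18 were measured, none was higher and 2 were lower, the ACC synthases, beside 3.54% of all genes each way. The list's median was 0.05, and it turned negative when the median or all probes set the scale, without TM, and against the median of the other arrays. LOC544279, whose synonym is the receptor ETR3, was lowest in SK fruit at -1.71, against -1.38 in AV, -1.42 in TM and -1.28 in RJ fruit. The receptor ETR4 differed by 0.06 and EIN2, a membrane protein that passes on the ethylene signal, by 0.48 with SK the highest. EIL1, an EIN3-like transcription factor, differed by -0.42 because TM stood above the rest at -0.77, against -1.87 in SK, -1.87 in AV and -1.73 in RJ fruit. EIL3, EIL4, JERF1, JERF3, ERF2, ERF3 and ERF6, all transcription factors, differed by -0.24 to 0.46. E8, a gene widely used as a marker of ethylene response in ripe fruit, differed by -0.22. EBF1, an F-box protein that targets EIN3-like factors in Arabidopsis, is outside the list and was noted after its values were seen. It was lowest in SK fruit at 0.51, against 0.73 in AV, 1.60 in TM and 1.41 in RJ fruit.

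RIN and NOR lay lower in SK fruit than in AV and RJ fruit and higher than in TM fruit. RIN, the MADS-box factor needed for ripening, had a signal of -0.22 in SK fruit, against 1.32 in AV, -1.37 in TM and 0.15 in RJ fruit. NOR, a NAC factor needed for ripening, had -1.32 in SK fruit, against 0.48 in AV, -2.03 in TM and -1.26 in RJ fruit. SK ranked 3 of 4 for both, with differences of -0.25 and -0.38, and close to RJ for NOR. Without AV both differences turned positive, to 0.39 for RIN and 0.32 for NOR, and without TM they were -0.96 and -0.93. FUL1, a MADS-box partner of RIN, was highest in SK fruit at 1.66, against 1.55 in AV, 0.04 in TM and 1.104 in RJ fruit. Its 5 probes gave 0.68 to 0.85 against the mean of the others, which without TM left a difference of 0.33.

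JA2, another NAC transcription factor, was the 1 gene of this list past the threshold. It had -2.75 in SK fruit, against -1.20 in AV, -1.76 in TM and -1.78 in RJ fruit, from 1 probe. SK differed by -1.17 from the mean of the others and by -0.98 without AV. Of 15 regulators 9 were measured, 0 were higher and 1 lower, beside 3.54% of all genes each way, with a median of 0.04 that took either sign across scalings. The remaining measured regulators, LOC543885 (synonym TM5), AP2a, TM29, ERF6 and DDB1, differed by -0.26 to 0.26.

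Isoprenoid and carotenoid genes showed 1 named gene apart, and it lies on a side branch. FPPS1 makes farnesyl diphosphate, from which sterols and sesquiterpenes derive. Its signal was -1.37 in SK fruit, against -2.22 in AV, -2.90 in TM and -2.80 in RJ fruit. SK was the highest, 1.27 above the mean of the others, or 2.41-fold, and 1.43 above RJ, from 2 measured probes of 7 on the array. Psy1, the phytoene synthase of ripe fruit, had 1.38 in SK fruit, against 2.17 in AV, 0.96 in TM and 1.55 in RJ fruit, with all 13 probes between -0.51 and -0.02. SK ranked 3 of 4 for Psy1, nearer to RJ and TM than to AV.

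Of 20 carotenoid genes on the array 10 were measured, 1 was higher and none lower, beside 3.54% of all genes each way. DXS, the first enzyme of the plastid isoprenoid route, was highest in SK fruit at 0.39, against 0.18 in AV, -1.03 in TM and 0.06 in RJ fruit, 0.66 above their mean and 0.28 without TM. ChrC, a protein that binds carotenoids in chromoplasts, stood 0.71 above the others, with -1.14 in SK fruit, against -1.64 in AV, -1.83 in TM and -2.09 in RJ fruit. The desaturases split, with ZDS at 0.31 and SK the highest, and PDS at -0.37 and SK the lowest. GGPS2, which makes geranylgeranyl diphosphate for phytoene, stood at -2.03 in SK fruit, against -0.997 in AV, -2.04 in TM and -1.37 in RJ fruit. NCED1, CCD1B and HDR differed by -0.14 to 0.03. The list's median was -0.01, with either sign across scalings, and 5 of the 10 genes were above 0, beside 181 of all 339 genes.

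Cell wall genes gave 1 endoglucanase on each side. Cel3 had a signal of -1.07 in SK fruit, against -2.57 in AV, -1.80 in TM and -2.30 in RJ fruit. That rests on 1 measured probe of 4 on the array. SK lay 1.16 above the mean of the others, 1.23 above RJ and 0.99 above the mean without AV. Cel2, known from ripe fruit and abscission zones, had 0.13 in SK fruit, against 1.49 in AV, 1.64 in TM and 0.36 in RJ fruit. SK and RJ lay together for Cel2, and their difference within the slide was -0.23, against -1.04 for the mean of the 3. It was -0.87 without AV and -0.80 without TM.

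XTH3, a xyloglucan-modifying enzyme, was highest in SK fruit at -1.04, against -2.19 in AV, -1.75 in TM and -1.96 in RJ fruit, and its 5 probes gave 0.82 to 1.05. TBG4, a beta-galactosidase, lay 0.57 above the others with SK highest, and XTH5 differed by -0.67 with SK between TM and RJ. The ripe fruit expansin EXP1 differed by 0.01. Of 27 cell wall genes 9 were measured, 1 was higher and 1 lower, beside 3.54% of all genes each way, with a median of 0.19. PG2, not among the 9 because of TM, differed by -1.46 between SK and RJ fruit and by -3.28 between SK and AV fruit. On its 6 probes SK minus RJ ran between -1.54 and -1.33.

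Among chaperone genes, HSC80 and Hsc70.1 were counted as lower in SK fruit. HSC80, a cytosolic chaperone of the Hsp90 family, had 0.13 in SK fruit, against 0.17 in AV, 2.05 in TM and 1.32 in RJ fruit. All 14 of its probes lay below the mean of the others, by -1.18 to -0.79, and the mean difference was -1.05. On some of these probes SK lay above AV. SK and AV lay together for HSC80, and the difference was -0.61 without TM and -0.98 without RJ. Hsp90-1 followed the same order, with -0.55 in SK fruit, against -0.54 in AV, 1.04 in TM and 0.35 in RJ fruit. Hsc70.1, of the Hsp70 family, had -1.88 in SK fruit, against -0.05 in AV, -0.64 in TM and -1.10 in RJ fruit. SK was the lowest there, with differences of -1.29 from the mean and -0.79 from RJ. MTSHP, a mitochondrial small heat shock protein, had -1.61 in SK fruit, against -1.49 in AV, -0.14 in TM and -0.38 in RJ fruit.

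HSC80, Hsc70.1 and MTSHP stand outside the heat shock list as it was matched. In that list 5 of 9 genes were measured and none reached 2-fold. HSP70 and HSP21 differed by 0.14 and 0.26, while HSP17.8, vis1 and Hsp90-1 differed by -0.83 to -0.37. The list's median was -0.37, and against RJ alone it was 0.01.

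SEND33, a ferredoxin, had the largest difference of the lower genes with a symbol. Its signal was -2.11 in SK fruit, against -0.61 in AV, -0.86 in TM and -0.19 in RJ fruit, from 1 probe. SK lay apart from all 3, with a difference of -1.56 from their mean, or 2.95-fold lower, and of -1.92 from RJ. LOC101246381, which has no symbol and is named after its values were seen, was lower still, with -2.78 in SK fruit, against 0.88 in AV, -1.99 in TM and -1.74 in RJ fruit. AV set most of that difference.

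Genes of water and ion transport included 2 counted as lower among 6 measured of 14, beside 3.54% of all genes, and 1 of the 2 rested on AV alone. The gene with the symbol pip1 had -1.66 in SK fruit, against -0.95 in AV, 0.41 in TM and -0.43 in RJ fruit. SK was the lowest, with a difference of -1.33 from the mean and -0.97 without TM. Its RefSeq synonym is INT9, so its role as a water channel is not settled here. PT1, a phosphate transporter, had -2.33 in SK fruit, against -0.04 in AV, -1.75 in TM and -2.16 in RJ fruit. Only AV stood apart for PT1: the difference was -1.02 against the mean, -0.38 without AV and -0.17 against RJ.

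The aquaporin PIP1-5 was lowest in SK fruit, and the other measured aquaporins outside the list, noted after their values were seen, did not all follow. PIP1-5 had -0.07 in SK fruit, against 0.91 in AV, 0.63 in TM and 0.72 in RJ fruit. PIP1-3 had -0.42 in SK fruit, against 0.55 in AV, 0.32 in TM and 0.37 in RJ fruit. The 3 other accessions lay close together for both, and SK differed from their mean by -0.82 for PIP1-5 and -0.83 for PIP1-3, short of 2-fold. Aqp2 differed by 0.54 with SK between AV and RJ, and PIP2-4 by -0.04. The proton pumps LHA1 and LHA2 differed by 0.41 and -0.08 and the metal transporter NRAMP3 by 0.13. The list's median was -0.45, the lowest of the lists with 3 or more measured genes. That rank did not hold under every alternative. Without RJ heat shock was lower (-0.46 against -0.40), and against RJ alone the polyamine and amine list was lower (-0.31 against -0.23).

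Several other genes were higher in SK fruit. AGP-1, an arabinogalactan protein of the cell surface, had 0.35 in SK fruit, against -1.30 in AV, -0.30 in TM and -0.98 in RJ fruit, 1.21 above their mean and 0.99 without AV. GRAS10, a GRAS-family transcription factor, had -0.69 in SK fruit, against -1.98 in AV, -1.52 in TM and -1.96 in RJ fruit. Both lay above every other accession, from 1 measured probe each, out of 5 on the array for GRAS10. GRAS10 stayed past 2-fold whichever array was left out (1.05 to 1.27), and was just short of it after normexp (0.999). AOX1a, the alternative oxidase of mitochondria, had 0.68 in SK fruit, against 0.49 in AV, -1.96 in TM and 0.41 in RJ fruit. TM alone made the AOX1a difference of 1.04, which was 0.23 without TM and 0.27 against RJ.

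The remaining 4 with symbols have no role given here. GRP1 had 1.29 in SK fruit, against -0.04 in AV, 0.58 in TM and 0.22 in RJ fruit, and CIP2a had -0.94 in SK fruit, against -2.19 in AV, -2.01 in TM and -1.83 in RJ fruit. VP1 had -1.32 in SK fruit, against -2.55 in AV, -1.81 in TM and -2.78 in RJ fruit, from 1 measured probe of 4. For ail the signal was 0.46 in SK fruit, against 0.08 in AV, -1.60 in TM and -0.54 in RJ fruit. SK was the highest of the 4 in each case, by 1.03 to 1.15 over the mean, or 2.04-fold to 2.22-fold. Without AV the difference was 0.88 for GRP1, 0.98 for CIP2a and 0.97 for VP1. VP1 gave 0.86 without RJ, and ail gave 0.69 without TM. The genes LOC544298 and LOC543627, with no symbol, completed the 12, at 1.22 and 1.03.

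ER24, a transcriptional coactivator of the MBF1 type, completed the lower genes. Its signal was -2.22 in SK fruit, against -1.77 in AV, -1.59 in TM and -0.27 in RJ fruit. RJ stood apart here, so that the difference was -1.01 against the mean and -0.54 without RJ.

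**Figure D3:**
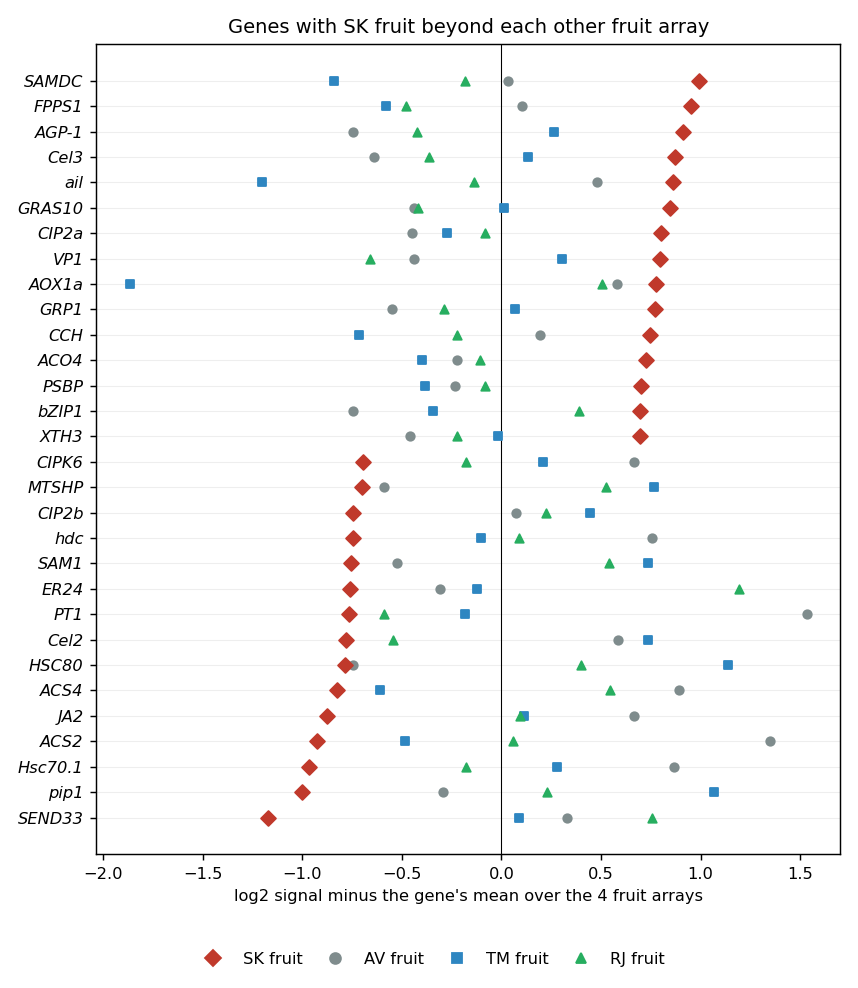
Each row is a gene with a symbol for which SK fruit lay beyond every other fruit array, 15 upward at the top and 15 downward at the bottom, ordered by SK minus the mean of the others. Markers give each array's log2 signal minus the gene's mean over the 4 fruit arrays; SK stands well clear of all 3 others for SAMDC, GRAS10 and SEND33, and next to another array for AOX1a, HSC80, PT1 and Cel2.

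Around the 2-fold line the differences ran on without a gap. The genes just inside were AOX1a (1.04) and GRP1 (1.03) upward and SAM1 (-1.01) and ER24 (-1.01) downward. Just outside were CCH (0.99), a copper chaperone in Arabidopsis, and ACO4 (0.97), with hdc (-0.99) and CIP2b (-0.99) on the lower side. PSBP, a subunit of the oxygen-evolving complex, followed at 0.93, with -0.81 in SK fruit, against -1.75 in AV, -1.90 in TM and -1.60 in RJ fruit.

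RSI-1, first described in auxin-treated roots, had the largest upward difference of any gene and is not counted. It had 0.84 in SK fruit, against 1.47 in AV, -3.06 in TM and -2.15 in RJ fruit. SK and AV were high and TM and RJ were low, so that SK lay 2.08 above the mean but below AV. Without TM the difference was 1.18.

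The ripe fruit markers placed SK below AV throughout, and below TM or RJ for only some of them. 2A11, a major fruit protein transcript, had 3.60 in SK fruit, against 5.24 in AV, 3.86 in TM and 4.24 in RJ fruit. SK was the lowest, with a difference of -0.84 from the mean of the others, with all 6 probes between -0.90 and -0.78. Of 8 ripe fruit markers measured on all 4 arrays, AV was above SK in 8, TM in 5 and RJ in 4. Over all 339 genes AV was above SK in 178, TM in 147 and RJ in 147. The marker list's median was -0.24, and 0.07 without AV. ADH2, the alcohol dehydrogenase of ripe fruit aroma, differed by -0.27.

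Other lists held few measured genes and no gene past the threshold beyond those named. All 4 measured cell cycle genes of 13 were above 0, beside 181 of all 339 genes, with a median of 0.39. They were the histone H1, CycA3, cdc2A-2 and the inhibitor krp1, at 0.25 to 0.62. The 3 measured photosynthesis genes were also above 0, with PSBP first, CAB6A at 0.40 and PSBR at 0.16. The 6 aroma and oxylipin genes had a median of 0.42, with AOS2, an allene oxide synthase, at 0.71. None of these groups held a gene at 2-fold, beside 3.54% of all genes each way.

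Dehydration genes gave 1 higher of 3 measured, beside 3.54% of all genes, namely AOX1a, beside ASR1, an abscisic acid and ripening gene, at 5.73 in SK fruit, against 5.20 in AV, 4.73 in TM and 5.52 in RJ fruit. The 8 sugar, starch and acid genes had a median of 0.00. AI, acid invertase, lay between the accessions with 0.52 in SK fruit, against 2.88 in AV, 0.08 in TM and -0.71 in RJ fruit. Of 6 hormone genes CYP85A1, of brassinosteroid synthesis, was at 0.78 and IAA3, an auxin response repressor, at -0.59, with a median of 0.03. Both of these medians took either sign across scalings. AGO4A, an argonaute of RNA-directed DNA methylation, differed by -0.80, with SK between AV and RJ. The housekeeping genes GAPDH, RPL8 and LOC544055 differed by -0.14 to 0.29, and GAPC2, of glycolysis, by 0.96 with SK just under AV, and by 0.41 without TM.

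**Figure D4:**
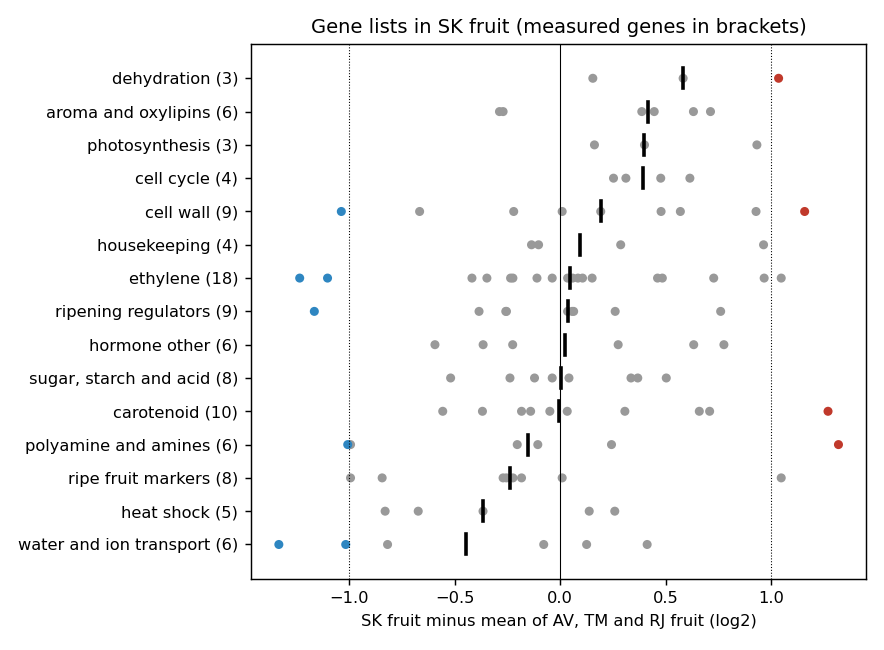
Each point is a gene measured on all 4 fruit arrays, placed by SK fruit minus the mean of AV, TM and RJ fruit on the log2 scale, in rows by gene list for lists with 3 or more measured genes, the number in brackets. Black bars are list medians, dotted lines mark 2-fold, and red and blue points are the genes counted as higher or lower; medians run between -0.45 for water and ion transport and 0.58 for dehydration.

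Some genes were well above background in SK fruit alone, or in the other 3 fruits and not in SK. There were 10 genes of the first kind and 12 of the second. Where SK is not above background, the fold is a lower bound set against the lowest signal above background on that array, or the gene's own signal if higher. MBP3, a MADS-box gene, was at least 2.41-fold lower in SK fruit, from 1 measured probe of 5. CIP1 was at least 4.23-fold lower in SK fruit from 2 probes of 4, with -4.04 in SK fruit, against -0.51 in AV, -2.81 in TM and -1.03 in RJ fruit. The plastid protease ftsH6 was at least 1.70-fold lower, PP2C-2, a protein phosphatase, at least 1.45-fold and GPI at least 1.32-fold.

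On the other side the bounds were smaller. NML2 was at least 1.80-fold higher in SK fruit. HDS, of the plastid isoprenoid route, was at least 1.67-fold higher and HB-1, a homeodomain protein, at least 1.54-fold. The remorin rem-2 was at least 1.39-fold higher and the transcription factor TCP24 at least 1.37-fold. Signals this low lie near the limit of the array.

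Most probes match no named gene here. Named genes hold 68 of the 247 probes counted as higher or lower, beside 790 of the 5099 compared. Averaged over probes, 3274 unnamed targets gave 67 higher and 64 lower in SK fruit, or 4% in all, against 7.08% of named genes. The largest was AK224831, with 1.24 in SK fruit, against -1.10 in AV, -2.82 in TM and -1.76 in RJ fruit, a difference of 3.13 from 2 probes. BG127002 followed at 2.05, with 5 probes between 1.79 and 2.51. On the lower side TA51875_4081 stood at -2.45 and AK247742 at -2.28, with 1 probe each. SK lay more than 2-fold from RJ on the same slide for each of these, though RJ was part of the mean by which they were ranked.

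Within the slide SK and RJ fruit differed by at least 2-fold for 142 probes higher in SK (2.78%) and 180 lower (3.53%). Of the probes counted against all 3 accessions, 73 of 110 higher and 88 of 137 lower also passed 2-fold against RJ. The rule for probes and genes used the same SK and RJ values and placed SK beyond RJ. A high share against RJ was thus built in and is no separate check. Over all 339 genes 17 were at least 2-fold higher than RJ (5.01%) and 16 lower (4.72%), and of the genes counted against all 3 accessions it was 10 of 12 higher and 7 of 12 lower. The genes that did not were AOX1a and CIP2a upward and ACS2, Cel2, Hsc70.1, JA2 and PT1 downward. For the other 2 arrays slide and accession cannot be told apart.

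SK leaf gives the same accession in another tissue, on a slide shared with the other leaves. On the 3079 probes above background on all 8 arrays, 118 were counted in fruit and 379 in leaf by the same rule. The 20 counted in both are 16.9% of the fruit set, beside 379 of all 3079 probes counted in leaf. They are 5.28% of the leaf set, beside 118 of all 3079 counted in fruit. Of the 20, 9 had the same sign. Across these probes the SK differences in fruit and leaf had r = 0.05. Of the 118, 62 (52.5%) had the same sign in leaf, against 48.5% of all 3079.

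Of the counted fruit genes 14 had every measured probe above background on all 8 arrays, and 3 lay past 2-fold in SK leaf. The share past 2-fold in leaf among all 163 such genes was not taken. pip1 was lower in SK leaf as well, by -1.60 against the other leaves, and PT1 by -1.43. AGP-1 lay 1.02 above the mean of the other leaves, but only AV leaf was below SK. It had 0.50 in SK leaf, against -2.86 in AV, 0.67 in TM and 0.65 in RJ leaf, so it is not higher in leaf by the rule used for fruit. SAMDC was -0.38 in SK leaf, and SEND33 was -0.06. Neither of these 2 reached 2-fold in leaf. ACS2, ACS4, JA2 and ER24 had no probe above background on any leaf array.

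**Figure D5:**
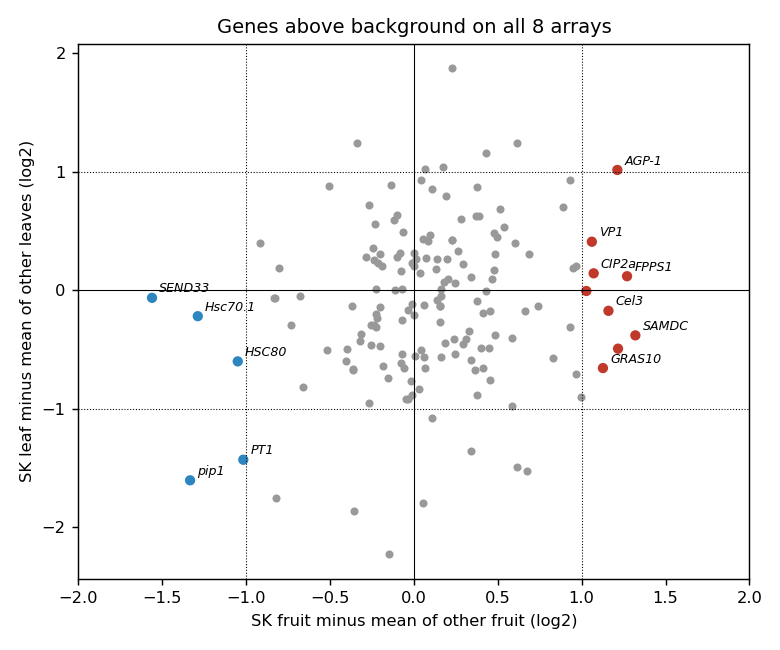
Each point is 1 of the 163 genes with every measured probe above background on all 8 arrays, with SK fruit minus the mean of the other fruits on the horizontal axis and SK leaf minus the mean of the other leaves on the vertical axis, both log2. Dotted lines mark 2-fold. Red and blue points are the 14 genes higher or lower in SK fruit. Of these pip1, PT1 and AGP-1 also lie past 2-fold from the mean in leaf, though for AGP-1 SK leaf was below TM and RJ leaf.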

How the data were processed

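One-colour arrays of red ripe fruit and mature leaf of 4 accessions were used, 1 array for each accession and tissue. Per the file headers, Agilent Feature Extraction 10.7.3.1 turned each deposited scan into intensity values for every spot, with flags for outliers, saturation and signal above background. The authors' deposited log2 table gave the same differences between fruit arrays within 0.02 for 100% of the 5099 probes, after 1 constant per array; its 247 unnamed columns hold no values.

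From the intensity values, outlier spots were dropped, replicate spots of a probe averaged as log2 values, and the 75th percentile of an array subtracted. Probes labelled as controls were left out. Of 3132 probes with a RefSeq accession, 2936 matched 1214 genes of the SLM_r2.1 table, used for names only. Of 159 genes with several measured probes, 41 had probes of both signs.

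The comparison, the members and the 20 gene lists were chosen with earlier results of these data known. Genes named are the 15 furthest each way with SK beyond the other arrays, all measured carotenoid, ethylene and ripening genes, up to 4 of each other list and 5 bounds each way; exceptions are marked. No test of a difference between accessions was made, so p-values are absent, and precision is limited by the number of arrays. The counting scripts were also tested on simulated data. Alternatives, 19 planned and 1 added after seeing the data, changed background correction (limma 3.58.1 in R 4.3.3, normexp offset 50), scaling, filter, fold minimum, probe choice and arrays. Python 3.11.15, pandas 2.3.3 and numpy 2.4.6 were used.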

Additional observations from a re-analysis of the deposited data

Results flagged for a closer look

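Of 100 named genes, 5 (5%) had 1 fruit array far from the other 3, by a gap that took more of the range than Dixon's critical value for 4 samples allows. The value served as a screen and not as a test between accessions. It flags about 1 in 20 groups by chance where groups are not picked by their values. These genes were chosen partly by their SK difference, so that rate does not apply to them. SK was the distant array for none of the 5. The gap as a share of the range was 0.903 for ADC with AV lowest, 0.898 for AOX1a with TM lowest, 0.867 for EIL1 with TM highest, 0.8294 for LHA1 with AV lowest and 0.851 for LOXB with TM lowest. For AOX1a the distant TM array carries the count as higher in SK fruit.

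On the array 8503 probes for tomato transcripts carry the label of a negative control, and they entered no comparison. In SK fruit 629 of them were well above background, against 0 of 153 spots of the true negative control. On all 4 fruit arrays 503 were above background, with 8 higher and 21 lower in SK fruit, or 5.77%. Their part in the background level of the arrays was not tested.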

How the results depend on the processing

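No paired analysis was possible because there is 1 array per accession and tissue and the labels give no replicate numbers. Against 110 probes higher and 137 lower and 12 genes each way, a 1.5-fold minimum gave 425 and 391 probes and 31 and 30 genes, and a 4-fold minimum 5 and 6 probes and 0 and 0 genes. Without the filter on dim probes there were 575 and 418 probes and 27 and 22 genes. With the filter on all 8 arrays, which keeps fewer probes, 44 probes and 5 genes were lower. After normexp 64 probes and 6 genes were higher, with median scaling 7 genes were higher and with spike-in scaling 7 were lower. Leaving out 1 fruit array gave 104 to 214 probes higher, 136 to 256 lower, 12 to 19 genes higher and 12 to 16 lower, the highest counts being without AV. The cause was not tested. None of the 21 counted genes with a symbol turned sign under an alternative. The rule had already placed SK beyond each other fruit array. Leaving out an array, using RJ alone or taking the median of the others therefore could not turn a sign. Only SAMDC (at least 1.07) and SEND33 (-1.92 to -1.38) stayed past 2-fold under all 20. Some of the 20 could not change this. The 1.5-fold and 4-fold minimums, and dropping the demand on order among arrays, leave a gene's difference as it is. The authors' deposited values also gave nearly the same differences. Normexp left 12 of the 21 past 2-fold. Of 15 list medians 7 kept their sign throughout. The background level of each array limits genes of low signal, for which bounds are given.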
